A study of Mus musculus with 4 samples.

Results

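Nuclear receptors and the coregulators that they recruit were measured in mouse liver by whole-genome expression array. The group holds 38 genes, chosen by name: every non-control probe that the array design assigns to one of these symbols was taken, without regard to its values. They are covered by 74 of the 41174 probes. Of these, 61 probes, for 35 of the 38 genes, were bright enough to be tested (above background, by the scanner software's flag, in both mice of a group), against 22969 probes and 15777 genes tested on the whole array.

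Nuclear receptors are transcription factors that bind DNA directly, and most are switched by a small lipophilic ligand. The sensors FXR (Nr1h4), PXR (Nr1i2), CAR (Nr1i3), LXR (Nr1h2 and Nr1h3) and the PPARs bind bile acids, drugs, oxysterols and fatty acids, and they act as heterodimers with a retinoid X receptor on paired copies of the hexamer AGGTCA. The thyroid and retinoic acid receptors use the same partner, whereas the glucocorticoid, mineralocorticoid and oestrogen receptors mostly bind as homodimers. Without ligand, several of them hold the corepressor Ncor1. Ligand exchanges it for coactivators of the Ncoa family, and in liver this system sets bile acid, drug, lipid and glucose metabolism.

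The samples were livers of 4 female BALB/c mice, 2 labelled control and 2 labelled LB1, killed 20 days after inoculation in a study whose title names a Lactobacillus species from ostrich. The labels give neither age nor dose, nor what the control mice received, and no genotype or second agent. RNA of each mouse was hybridised to 1 array with 1 dye, so the spread within a group rests on 2 mice. Control replicate 1 and LB1 replicate 1 shared a slide and scan, as did the replicates numbered 2. The question put to the data was whether the sensors of bile acids, drugs and fat differed between LB1 and control livers in another way than the steroid and thyroid receptors.

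Levels are log2 of the background-subtracted spot signal minus the 75th percentile of the array, so 0 is that percentile, and differences are LB1 minus control on this log2 scale. Levels of different probes are not compared with each other. A probe is said to have risen or fallen where its limma adjusted p, over all tested probes, was under 0.05. The 75th percentile itself was 410.9 and 414.7 signal units on the control arrays and 146.9 and 80.78 on the LB1 arrays, so dim probes stood closer to background in LB1. The median difference of all 15777 genes was 0.29 on this scale, 0.05 after quantile normalisation, -0.34 relative to the array median and 0.37 after normexp background correction, and a member's difference is to be read against that shift. An exact permutation test of 2 mice against 2 cannot give a p below 0.333.

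When each gene was represented by its brightest tested probe, 8 of 35 member genes (22.9%) rose in LB1 and 0 fell. Of all genes tested, 21.7% rose and 9.78% fell. In either direction 31.5% of all genes passed. At an unadjusted p under 0.05 the limma fit gave 15 of the 35 member genes, against 47.9% of all genes. With each gene represented by the probe brightest in control instead, 6 rose, against 20.9% of all genes, and 1 fell, against 1653 of all 15777 genes. The 8 were Rxra, Nr3c2, Esr1, Thra, Rara, Nr2c2, Nr2f2 and Nr5a2. Both LB1 arrays lay above both control arrays for 22 of 35 member genes (62.9%, against 49.2% of all genes) and below them for 6 (17.1%, against 27.5%). The median difference was 0.36 over the members and 0.29 over all genes.

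The split of member genes into rises and falls moved with the scaling, as it did for the whole array. After quantile normalisation 5 rose and 0 fell (12.1% and 13.1% of all genes), relative to the array median 3 rose and 5 fell (7.87% and 25.6%), and after normexp 10 rose and 4 fell (46.0% and 20.6%).

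Over single probes, 9 of 61 (14.8%) rose and 7 (11.5%) fell, against 19.2% and 13.2% of all tested probes (32.4% in either direction). Both LB1 arrays lay above both controls for 28 probes and below them for 20, against 43.8% and 32.3% of all probes. The shares of called members lay near those of the array as a whole. The 16 probe calls did not hold when either control array was left out, and neither did nearly all calls of the whole array. Most of the 16 held when 1 LB1 array was left out, and calls on the whole array then also remained many. The loss was thus not particular to the members, and such a fit leaves 1 mouse in a group. With the replicate number as a block, 15 of 16 held, and the exception was Rxra (adjusted p = 0.0511).

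**Figure D1:**
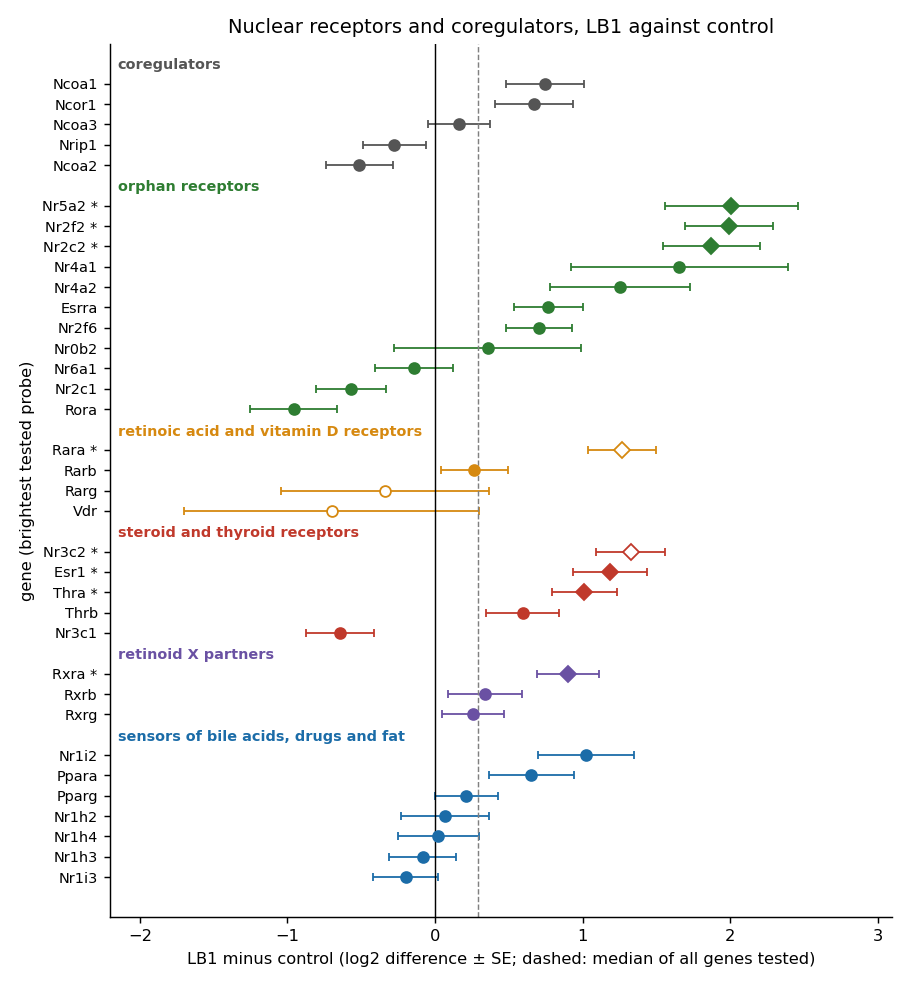
The LB1 minus control difference (log2, horizontal axis) of the brightest tested probe of each of 35 member genes, grouped by role, with bars of 1 standard error; diamonds and asterisks mark adjusted p under 0.05, open symbols mark probes that were not well above background on all 4 arrays, and the dashed line is the median of all genes, 0.29. The 7 sensors lie between -0.20 and 1.02 with no diamond, whereas 3 of 5 steroid and thyroid receptors and 3 of 11 orphan receptors carry one.

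The sensors of bile acids, drugs and fat were measured by 1 probe each. None of the 7 tested sensors passed the threshold in the limma fit, where 31.5% of all genes did. Of the 7, 1, Nr1i2, had an unadjusted p under 0.05 (0.0251), against 47.9% of all genes. Their median difference was 0.07, which is 0.23 below that of all genes, and it was -0.0045 after quantile normalisation, -0.57 relative to the array median and -0.37 after normexp. All 7 were well above background on all 4 arrays.

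Nr1h4, the bile acid receptor FXR, had levels of 4.76 and 4.73 in the control mice and 4.48 and 5.05 in the LB1 mice. The LB1 values straddled the controls, and the difference was 0.02 ± 0.27 (SE) with a 95% interval of -0.69 to 0.73, or -0.30 after quantile normalisation. The oxysterol receptor Nr1h3 (LXR alpha) stood at 3.85 and 4.07 against 3.97 and 3.78. Its groups overlapped, with a difference of -0.08 (95% interval -0.67 to 0.50). The other LXR, Nr1h2, differed by 0.07 (-0.70 to 0.83) and turned to -0.0045 after quantile normalisation.

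Nr1i3, the drug sensor CAR, read 4.01 and 3.86 in control and 3.64 and 3.83 in LB1. Both LB1 values were lower, by a margin of a few hundredths at the nearest pair, and the difference of -0.20 had a 95% interval of -0.77 to 0.37 (adjusted p = 0.504). It did not pass after quantile normalisation or relative to the array median, but after normexp it was -0.73 (adjusted p = 0.00606). In the rounded series table, whose signal is not background-subtracted, it was -0.50 (0.0399). Nr1h3 passed after normexp too, at -0.59 (adjusted p = 0.0157), and not in the quantile, array median or rounded table fits.

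Nr1i2, the other drug sensor PXR, showed 3.11 and 2.83 in control and 3.63 and 4.36 in LB1. Both LB1 mice were above both controls, unequally: 0.52 on the slide of replicate 1 and 1.53 on that of replicate 2. The difference of 1.02 ± 0.32, 2.03-fold, gave an adjusted p of 0.0649 and 0.0197 without LB1 replicate 1, and it passed in the rounded series table (0.70, adjusted p = 0.0225), among probes well above background on all 4 arrays (0.0373) and with trended, robust eBayes (0.0336). Ppara, the fatty acid receptor that drives fat oxidation in the fasting liver, had 4.66 and 4.82 in control and 5.09 and 5.70 in LB1. The groups did not overlap, but the difference of 0.65 ± 0.29 did not pass (adjusted p = 0.133) and was 0.02 relative to the array median. Its 10 copies of the same probe scattered by no more than 0.0654 (SD) within an array. Spot noise was thus small beside the spread between the arrays of a group, in which mouse, slide and scan cannot be told apart. Pparg, the adipogenic PPAR, differed by 0.21 (95% interval -0.33 to 0.76), and Ppard was not well above background on any array.

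**Figure D2:**
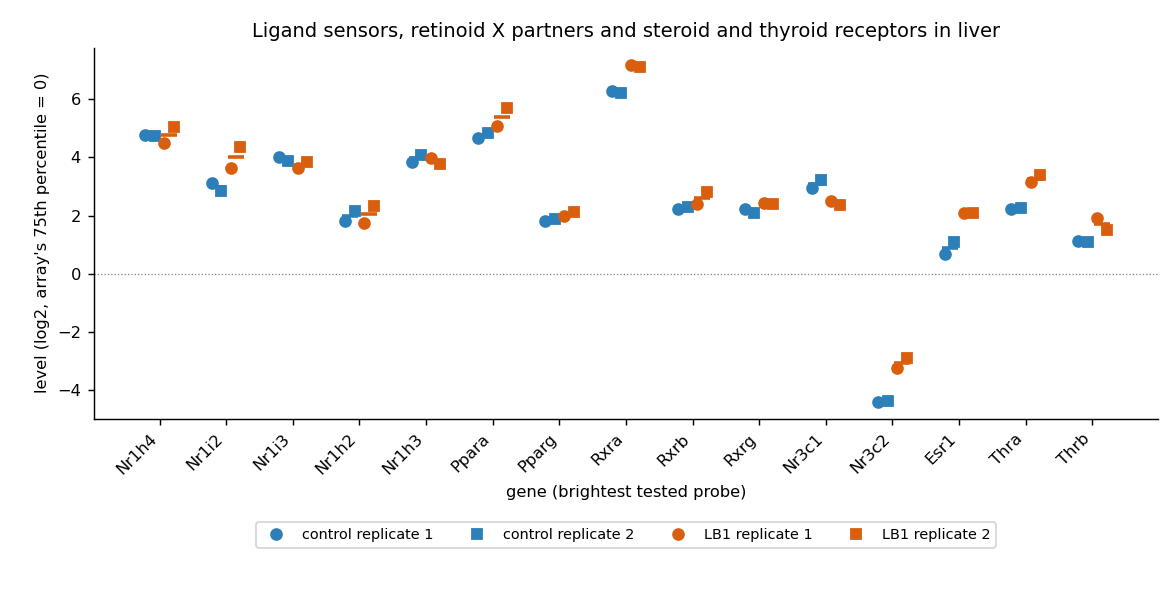
Levels (log2, 0 is the 75th percentile of the array) of the brightest tested probe of 15 receptors on each array, with control in blue, LB1 in orange, circles for replicate 1, squares for replicate 2 and short bars for group means; heights of different genes are not comparable. Rxra, Esr1, Thra and Nr3c2 separate the groups by about 1 unit, and so does the sensor Nr1i2, which did not pass the threshold. The groups do not overlap for the sensors Ppara, Pparg and Nr1i3 either, whereas they do for Nr1h4, Nr1h2 and Nr1h3.

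Rxra encodes the main retinoid X receptor of liver, the obligate partner of the sensors. Its brighter probe read 6.29 and 6.20 in control and 7.17 and 7.11 in LB1. The 4 values fell into 2 tight pairs, and the gene rose by 0.90 ± 0.21, 1.86-fold (adjusted p = 0.0343). The size depended on the scaling: 0.45 after quantile normalisation (adjusted p = 0.152), 0.26 relative to the array median (0.643) and 0.30 after normexp (0.0688), none of which passed. A second probe, 3095 bases upstream on mm9, gave -0.05 and 0.41 in control and -0.02 and 0.27 in LB1, overlapping groups with a difference of -0.06 (95% interval -0.75 to 0.63).

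RefSeq gives Rxra more than 1 start, and the 250 bases before the downstream one are shown because they hold 2 copies of the hexamer AGGTCA that receptor heterodimers read (capitals; TGACCT is the same hexamer on the other strand), at 87 and 48 bases before the start, chr2:27709042-27709291 of GRCm38.p6, plus strand.
Rxra promoter: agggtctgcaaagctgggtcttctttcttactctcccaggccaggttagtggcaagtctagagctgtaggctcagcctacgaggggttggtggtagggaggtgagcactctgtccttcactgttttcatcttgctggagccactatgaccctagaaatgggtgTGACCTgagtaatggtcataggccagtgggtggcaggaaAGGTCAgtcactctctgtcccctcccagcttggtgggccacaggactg

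Rxrb, the second retinoid X receptor, gave 2 answers at 2 probes 1306 bases apart. The brighter read 2.22 and 2.30 in control and 2.39 and 2.81 in LB1, a difference of 0.34 that did not pass (adjusted p = 0.321). The other, probe A_51_P314830, read -0.06 and 0.06 in control and -1.41 and -1.86 in LB1. Both LB1 mice were far below both controls there, and the probe fell by 1.64 ± 0.25 (3.11-fold lower, adjusted p = 0.0219), with -1.71, -2.27, -0.89 and -1.07 by quantile, array median, normexp and the rounded series table, all past the threshold. This probe is printed because its 60 bases lie over 175 bases of the genome, so that it spans a splice junction and reads spliced transcripts (chr17:34173690-34173864 of mm9, plus strand; no base is singled out by capitals).
Rxrb probe A_51_P314830: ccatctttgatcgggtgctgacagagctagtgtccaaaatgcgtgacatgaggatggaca

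Rxrg, the third retinoid X receptor, differed by 0.25 (95% interval -0.29 to 0.80). The 5 probes of the 3 genes thus held 1 rise and 1 fall.

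The steroid and thyroid receptors are 5 genes with 15 probes, of which 12 were tested. By brightest probe 3 of 5 rose and 0 fell (21.7% and 9.78% of all genes), with 4 at an unadjusted p under 0.05 (47.9% of all genes). Their median difference was 1.01, 0.72 above that of all genes, and it was 0.60 after quantile normalisation, 0.38 relative to the array median and 0.50 after normexp. Over all 12 tested probes the picture turned: 3 rose, 5 fell and the median difference was -0.54. The contrast with the sensors (0 of 7 called, median 0.07) therefore held for the brightest probes only and was not tested as such.

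Nr3c1, the glucocorticoid receptor, was the one gene of the 5 that was lower at every tested probe. Its brightest probe read 2.95 and 3.23 in control and 2.51 and 2.38 in LB1. The groups did not overlap, and the difference of -0.64 ± 0.23 missed the threshold (adjusted p = 0.0844) but passed relative to the array median (-1.28, 0.0111) and after normexp (-1.05, 0.00255). The second, A_52_P63106, read 0.43 and 0.83 against -0.99 and -1.41.

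That second Nr3c1 probe fell by 1.83 ± 0.28, 3.55-fold (adjusted p = 0.0217), and kept its call under all 4 other scalings and background settings, at -1.18 to -2.46. The third, A_52_P254174, read -1.28 and -1.04 against -2.38 and -2.09 and fell by 1.08 ± 0.24 (adjusted p = 0.0311), shrinking to -0.12 after normexp (adjusted p = 0.464). The fourth, A_51_P355693, read -1.20 and -0.93 in control and was not well above background in either LB1 mouse. It was at least 5.36-fold lower in LB1, a lower limit set by the dimmest signal that still counted as above background on those arrays, and its adjusted p was 0.0201. After normexp its difference was -0.10 (adjusted p = 0.416). The 4 probes lie within 3564 bases of one another.

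Nr3c2, the mineralocorticoid receptor, was dim: its one tested probe read -4.39 and -4.38 in control and -3.23 and -2.88 in LB1, and LB1 replicate 1 was not well above background. It rose by 1.33 ± 0.23, 2.51-fold (adjusted p = 0.0239), and this was 0.60 after quantile normalisation (0.226) and 0.69 relative to the array median (0.183), neither past the threshold. The other 2 probes of the gene were not above background on any array.

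Esr1, the oestrogen receptor alpha, was read by 10 spots of 1 probe. Both Esr1 probes were designed on the RefSeq mRNA but lie on the minus strand of mm9 in the files, whereas RefSeq has the gene on the plus strand of GRCm38.p6. The 10 spots gave 0.67 and 1.11 in control and 2.07 and 2.08 in LB1, with an SD between spots of 0.0645 to 0.0879 on each array. Both LB1 mice were nearly equal and above both controls, and the probe rose by 1.19 ± 0.25, 2.27-fold (adjusted p = 0.0290). It kept the call after quantile normalisation (1.15) and normexp (0.71) but not relative to the array median (0.55, adjusted p = 0.300) nor without LB1 replicate 2 (0.0532). A dim second probe, above background in control only, differed by 0.0003 with a 95% interval of -1.71 to 1.71, and no fold is given for it.

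Thra, the thyroid hormone receptor alpha, had 2 probes 714 bases apart. The brighter read 2.23 and 2.27 in control and 3.14 and 3.38 in LB1, and it rose by 1.01 ± 0.22, 2.02-fold (adjusted p = 0.0305), with 0.88 after quantile normalisation and 0.50 after normexp, both past the threshold, and 0.38 relative to the array median, which was not (0.495). The other read -0.70 and -0.69 against -1.03 and -1.24. Here both LB1 mice lay below both controls, and the difference of -0.44 ± 0.22 did not pass (adjusted p = 0.166); it was -1.08 relative to the array median, which passed (0.0311), and 0.18 after normexp. The sequence of this second probe is shown because it disagrees with its neighbour (chr11:98625642-98625701 of mm9, plus strand).
Thra probe A_52_P666930: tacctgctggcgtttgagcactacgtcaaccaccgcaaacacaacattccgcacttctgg

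Thrb, the thyroid hormone receptor beta and the main form in hepatocytes, split in the same manner. Its brightest probe read 1.12 and 1.095 in control and 1.92 and 1.49 in LB1, a difference of 0.60 ± 0.25 (adjusted p = 0.118) that was -0.04 relative to the array median. A probe 632 bases away read -1.06 and -0.99 in control and -2.08 and -2.89 in LB1. It fell by 1.46 ± 0.33 (adjusted p = 0.0326), but the difference was 0.03 after normexp (adjusted p = 0.824).

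The third tested Thrb probe read -3.85 and -3.74 in control and was not well above background in LB1. Its fall of 1.14 (adjusted p = 0.0435) reversed to 1.21 after normexp and to 0.87 in the rounded series table, so it has no settled direction, and no lower limit of a fold can be given. The remaining probe was not above background on any array.

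Retinoic acid and vitamin D receptors were close to the detection limit. Of 8 probes 4 were tested and 1 was well above background on all 4 arrays. Rara, the retinoic acid receptor alpha, read -4.84 and -5.17 in control and -3.71 and -3.77 in LB1. The call (1.27 ± 0.23, adjusted p = 0.0245) rests on LB1 signals that were not well above background on either array, so no fold is given, and it did not pass after quantile normalisation (0.34, adjusted p = 0.360) or relative to the array median (0.63, 0.220). Rarb, measured by 10 spots, differed by 0.27 (95% interval -0.31 to 0.85). The dim probes of Rarg and Vdr had intervals of -2.16 to 1.48 and -3.27 to 1.87, so differences of several fold in either direction lie within the error.

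The orphan receptors, which lack an established physiological ligand or work without one, included Nr5a2, Nr2f2 and Nr2c2 among the called genes. Of 11 tested genes 3 rose and 0 fell by brightest probe (21.7% and 9.78% of all genes), 7 had an unadjusted p under 0.05 (47.9% of all genes), and the median difference was 0.77 (0.57 after quantile normalisation, 0.13 relative to the array median and 0.49 after normexp). All 3 called probes kept their calls under these scalings and in the rounded series table. The choice of probe used the LB1 arrays too: with the probe brightest in control, 1 of the 11 rose (Nr5a2) and 1 fell (Nr2c2), since other probes then stand for Nr2f2 and Nr2c2.

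Nr5a2, the liver receptor homologue LRH-1, which drives bile acid synthesis genes in hepatocytes, read 2.53 and 2.55 in control and 3.91 and 5.18 in LB1. The controls were almost equal and both LB1 mice were higher, LB1 replicate 2 by far the more. It rose by 2.01 ± 0.45, 4.02-fold (adjusted p = 0.0320), with 1.39 on the slide of replicate 1 and 2.63 on that of replicate 2, and 1.80, 1.37 and 1.43 by quantile, array median and normexp. Leaving out control replicate 1 or 2 gave adjusted p of 0.108 and 0.143. Nr5a2 is also a known factor of exocrine pancreas, and 2 of the 4 tested pancreas markers rose, Cel and Clps. Clps was bright enough to test in LB1 but not in control, so the filter itself favoured its rise. Another of the 4, Cela1, differed by -1.99 (unadjusted p = 0.0225, adjusted p = 0.0606 in the limma fit), and 1 of the 4 fell with the replicate block. The summed signal of the 9 pancreas markers on the array, relative to the 75th percentile, was 0.676 to 0.960 in control and 1.34 to 1.46 in LB1, with Cela2a, Cpa1, Pnlip and Prss2 never above background. The part of such tissue in the Nr5a2 rise was not tested.

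The 250 bases before the upstream of the Nr5a2 starts in RefSeq are given since this gene rose most among the members by brightest probe on the main scale (Nr2f2 rose more after quantile normalisation, and Rara, Nr2c2 and Nr3c2 did after normexp). They hold 1 AGGTCA (capitals), 64 bases before the start, at chr1:136960449-136960698 of GRCm38.p6, minus strand.
Nr5a2 promoter: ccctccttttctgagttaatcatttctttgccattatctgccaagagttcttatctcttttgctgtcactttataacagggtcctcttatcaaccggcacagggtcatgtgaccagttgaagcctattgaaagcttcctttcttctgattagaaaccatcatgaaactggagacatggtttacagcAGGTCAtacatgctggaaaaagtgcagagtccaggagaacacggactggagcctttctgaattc

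Nr0b2, the small heterodimer partner SHP, lacks a DNA-binding domain and represses Nr5a2 in the feedback on bile acid synthesis. It read 0.27 and -1.33 in control and 0.34 and -0.68 in LB1. The replicates numbered 1 were high and those numbered 2 low in both groups, so the groups overlapped. The difference was 0.36 with a 95% interval of -1.27 to 1.98, or adjusted p = 0.680, and 0.346 with the replicate block. Its promoter is set beside that of Nr5a2 because it holds 2 copies of TCAAGG, the half-site that monomeric receptors such as Nr5a2 read (capitals), 68 and 35 bases before the start, at chr4:133553126-133553375, plus strand.
Nr0b2 promoter: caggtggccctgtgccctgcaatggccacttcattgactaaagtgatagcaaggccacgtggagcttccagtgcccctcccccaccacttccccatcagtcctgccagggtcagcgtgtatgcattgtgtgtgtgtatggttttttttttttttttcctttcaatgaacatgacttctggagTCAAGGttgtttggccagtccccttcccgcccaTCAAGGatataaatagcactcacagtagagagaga

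RefSeq promoters (250 bases before to 50 after each start, both strands searched, GRCm38.p6) were at hand for 33 of 38 members, 50 in all. AGGTCA occurred in 10 of these 50 and in 16.3% of all 32851 promoters, and TCAAGG in 6 of 50 and in 14.4%. The longer TCAAGGTCA, which holds both hexamers in overlap, was in 0 of 50 and in 0.423% of all. The paired forms AGGTCANAGGTCA, AGGTCANTGACCT and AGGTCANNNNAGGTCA were in 0 of 50 and in 0.0396%, 0.00913% and 0.0152% of all. These are letter matches and not binding sites.

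Nr2f2, the receptor COUP-TFII of venous endothelium and mesenchyme, had 2 tested probes 1072 bases apart that read different sizes. The probe designed on another transcript than the RefSeq mRNA read 2.13 and 1.59 in control and 3.64 and 4.06 in LB1, and it rose by 1.99 ± 0.30, 3.97-fold (adjusted p = 0.0216), kept at 1.84, 1.35 and 1.41 by quantile, array median and normexp. The probe on the RefSeq mRNA read 2.31 and 1.90 against 2.43 and 2.69. Both LB1 mice lay above both controls there too, but the difference of 0.46 ± 0.26 did not pass (adjusted p = 0.210) and was -0.18 relative to the array median and -0.0062 after normexp.

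Markers of cells other than hepatocytes were read in the same livers, where 21.7% of all genes rose and 9.78% fell. Of 11 tested mesothelial markers 10 rose. The summed signal of the 15 on the array was 0.401 to 1.81 in control and 15.7 to 52.9 in LB1, with Bnc1 never above background. Of the 11, 4 were well above background on all 4 arrays. The others were bright enough to test in LB1 but not in both controls, so the filter itself favoured their rise. Of 12 stellate cell and fibroblast markers 3 rose (summed signal 82.4 to 88.4 against 106 to 117), and of 11 endothelial markers 2 rose and 1 fell (51.5 to 56.8 against 45.1 to 54.0). These counts lay near the shares of the array. The median differences of the stellate and endothelial lists were 0.28 and -0.34, against 0.29 for all genes. In bulk liver a change in the number of cells of a type and a change in the RNA per cell cannot be told apart, and the part of these cells in the Nr2f2 rise was not tested.

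Nr2c2, the testicular receptor TR4, was the only one of the 3 members with at least 2 called probes to have calls in both directions, against 26.4% of the 924 genes with at least 2 called probes on the array. A probe designed on another transcript than the RefSeq mRNA read -3.22 and -3.17 in control and -1.73 and -0.92 in LB1 and rose by 1.87 ± 0.33, 3.66-fold (adjusted p = 0.0239). Before scaling, its signal was 44.1 and 46.1 in control and 44.4 and 42.7 in LB1. The probe on the RefSeq mRNA, 58311 bases downstream, read -2.49 and -2.53 in control and was not well above background in LB1. Its fall of 1.45 (adjusted p = 0.0216) reversed to 0.67 after normexp (0.00362) and 0.35 in the rounded series table, so it has no settled direction, and no fold is given. The rise of the other probe kept its sign in both settings, and the calls in both directions therefore hold for the main scaling and not after normexp. The RefSeq probe is printed as the one tied to the annotated transcript (chr6:92114225-92114284 of mm9, plus strand).
Nr2c2 probe A_51_P368265: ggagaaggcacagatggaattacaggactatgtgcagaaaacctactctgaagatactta

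The other 8 tested orphan receptors did not pass. The immediate-early receptors Nr4a1 and Nr4a2 differed by over 1 unit with a wide spread: Nr4a1 read -0.43 and -1.11 in control and 1.95 and -0.17 in LB1, a difference of 1.66 ± 0.73 (adjusted p = 0.135), and Nr4a2 differed by 1.25 ± 0.48 (0.0979). Only LB1 replicate 1 was far above the controls for Nr4a1, which passed without LB1 replicate 2 (0.0341), in the rounded series table (0.0206) and with the replicate block (0.0454), as did a dimmer Nr2c1 probe with the block (0.0482). The oestrogen-related receptor Esrra, a regulator of mitochondrial genes, differed by 0.77 and 1.07 at its 2 probes (0.0598 and 0.0746). Rora, which activates clock genes, was lower at all 3 probes, by -0.96, -0.63 and -0.32, of which none passed. The first and second did relative to the array median (-1.59 and -1.26) and after normexp (-1.06 and -0.78), and the last reversed after normexp (1.07) and in the series table (0.84). The brightest probes of Nr2c1, Nr2f6 and Nr6a1 differed by -0.57, 0.71 and -0.14, the last reversing after normexp (0.49). Nr2f1 and Hnf4g were not tested, since neither was bright enough in both mice of a group.

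The coregulators are 5 genes with 16 probes, 15 of them tested. By brightest probe 0 of 5 passed and 1, Ncoa1, had an unadjusted p under 0.05 (31.5% and 47.9% of all genes). Their median difference was 0.16, and -0.47 relative to the array median and -0.06 after normexp. Ncor1, the corepressor that recruits histone deacetylase to unliganded receptors, has 3 probes on its RefSeq mRNA. They are printed together because they read 1 transcript and differ in result; all lie on the minus strand of mm9, at chr11:62233143-62233202, chr11:62134649-62134708 and chr11:62131484-62132878 in that order.
Ncor1 probe A_52_P487598: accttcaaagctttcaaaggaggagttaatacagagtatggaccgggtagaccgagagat
Ncor1 probe A_52_P561927: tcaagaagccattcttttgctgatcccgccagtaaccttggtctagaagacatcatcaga
Ncor1 probe A_52_P561934: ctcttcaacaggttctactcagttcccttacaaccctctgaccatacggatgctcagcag

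The first of these Ncor1 probes, nearest the 5′ end, read 0.23 and -0.04 in control and 1.004 and 1.19 in LB1 and rose by 1.004 ± 0.23, 2.01-fold (adjusted p = 0.0337). It kept the call after quantile normalisation (0.0373) and normexp (0.00932) but not relative to the array median (0.37, adjusted p = 0.501) or without LB1 replicate 2 (0.0586). The second read 1.53 and 1.92 against 1.46 and 1.72, overlapping groups with a difference of -0.13 (95% interval -0.79 to 0.52). The third and brightest, across a splice junction, read 3.09 and 3.25 against 3.59 and 4.09. Both LB1 mice were above both controls at it, but the difference of 0.67 ± 0.26 did not pass (adjusted p = 0.106). The 3 other Ncor1 probes lie on the opposite strand and were dim. One was not tested, and the other 2 did not pass but did after normexp (1.16 and 1.55, adjusted p = 0.00113 and 0.000848) and in the rounded series table (0.00348 and 0.000624).

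Nrip1, the corepressor RIP140 of fat metabolism, read 0.34 and 0.34 in control and 0.13 and -0.0009 in LB1 at its brightest probe. The LB1 mice were lower by a small step, a difference of -0.27 with a 95% interval of -0.82 to 0.27. A second probe differed by -0.67 (adjusted p = 0.0705) but by 0.39 after normexp, and the last by 0.42, where control replicate 1 read -0.46 and control replicate 2 read -2.27. The steroid receptor coactivators Ncoa1, Ncoa2 and Ncoa3 ranged from -0.51 to 0.75 over 7 tested probes with no call, and Ncoa2 and Ncoa3 had probes of both signs.

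Probes of 1 gene often disagreed. Of the 15 members with at least 2 tested probes, 10 (66.7%) had differences of both signs, against 46.4% of the 5287 such genes on the array. Over 2552 genes with probes at least 500 bases apart, the probe nearer the 3′ end had the larger difference in 52.5%, with a median excess of 0.08. Of the 46 member probes well above background on all 4 arrays, 7 rose and 4 fell (11 of 46, against 33.6% of all such probes), and 40 had the same sign on both slides. The same sign was not counted over the whole array. There, 43.8% and 32.3% of all tested probes had both LB1 arrays above or below both controls, which fixes the sign on both slides.

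**Figure D3:**
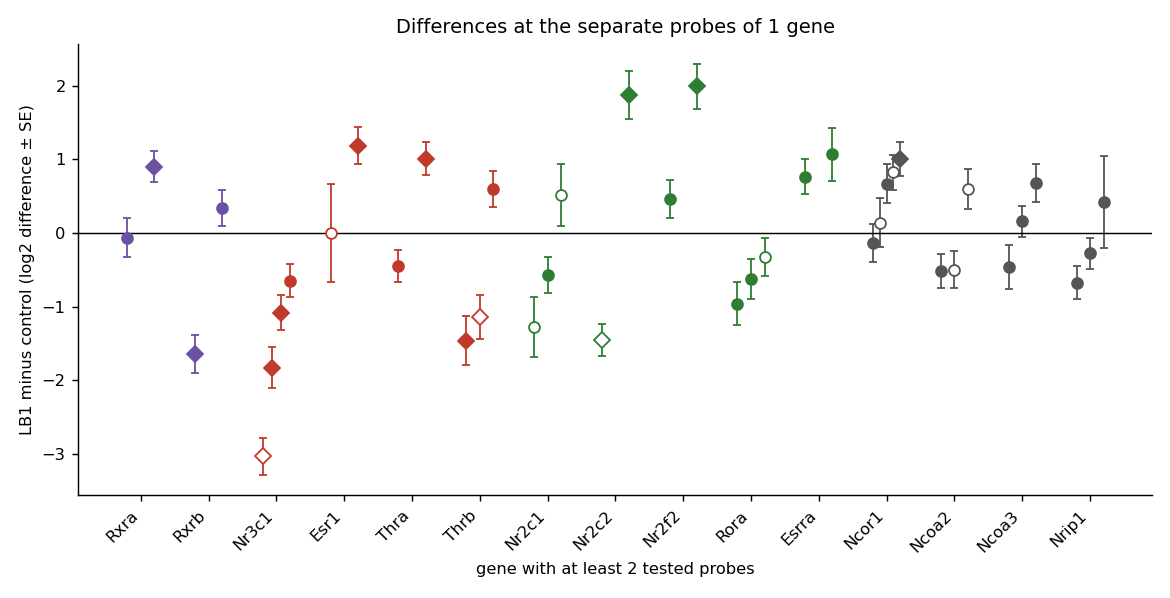
The LB1 minus control difference (log2 ± SE, vertical axis) of every tested probe of the 15 members with at least 2 tested probes; diamonds mark adjusted p under 0.05, open symbols probes not well above background on all 4 arrays, and colours the role of the gene. The 4 Nr3c1 probes all lie below 0, whereas the 2 Nr2c2 probes lie at 1.87 and -1.45 and the 2 Rxrb probes at 0.34 and -1.64.

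**Figure D4:**
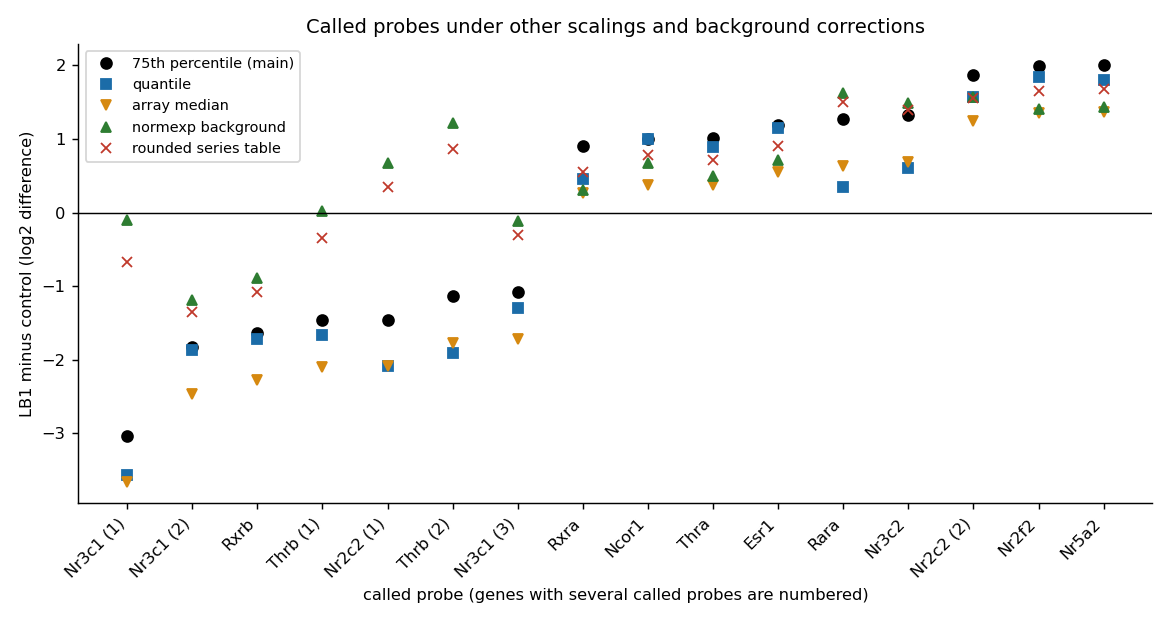
The LB1 minus control difference (log2, vertical axis) of the 16 called probes under the main scaling (black circles) and 4 other settings. The rises of Nr5a2, Nr2f2 and Nr2c2 and the falls of Rxrb and of Nr3c1 (2) keep their direction and call in every setting, whereas normexp moves Thrb (1), Thrb (2) and Nr2c2 (1) above 0.

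Of the 16 calls, 5 held under all 4 other settings: Nr5a2, Nr2f2 and Nr2c2 upwards, and the Rxrb junction probe and 1 Nr3c1 probe downwards. Before scaling, the rising probes gave similar signal in control and LB1. Nr2c2 read 44.1 and 46.1 against 44.4 and 42.7, Nr2f2 1800 and 1250 against 1830 and 1350, and Nr5a2 2370 and 2430 against 2220 and 2920. Their rises are thus relative to the other probes of each array. Quantile normalisation kept 13 calls, normexp 10, the array median 10, and the values of the rounded series table kept 12.

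The remaining receptors of the family were mostly below background: of 16, 6 were tested, and 10, among them Pgr and Esr2, were never above background. Nr5a1 rose by 1.76 (adjusted p = 0.0311), Esrrg rose, and Nr1d2, the clock repressor REV-ERB beta, fell by 1.46 (2.69 and 2.85 against 1.26 and 1.36, adjusted p = 0.0216). Of 22 other coregulators 4 rose and 3 fell (21.7% and 9.78% of all genes), with Tacc1 up by 1.27 and the receptor coactivator Ncoa4 down by 1.28. The Ncoa4 call was kept in each scaling, but that of Tacc1 was not relative to the array median (adjusted p = 0.218).

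Target genes of the receptors were read beside the receptors themselves, from lists of known targets. Of 15 tested PXR and CAR targets 1 rose and 7 fell (9.78% of all genes fell), with a median difference of -0.60, and -0.78 to -1.38 with normexp, array median and quantile scaling. Ugt1a1, which conjugates bilirubin, read 3.50 and 3.63 in control and 0.73 and 0.99 in LB1 and fell by 2.71, and Cyp2b10, the classic CAR target, fell by 1.82. Of 10 FXR and SHP targets 3 rose, 1 of them on a saturated probe, and 3 fell (median 0.11), but 0 rose and 4 fell after quantile normalisation, 0 rose and 3 fell relative to the array median, and 2 rose and 4 fell after normexp. The bile acid importer Slc10a1 fell by 2.45, and Cyp7a1, the enzyme that commits cholesterol to bile acids and also a target of Nr5a2, read 4.78 and 5.70 against 2.40 and 2.19 and fell by 2.95. All 4 of these calls held in the quantile, array median and normexp fits.

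Lipid targets were mixed, on an array where 21.7% of all genes rose and 9.78% fell. Of 17 PPAR targets 4 rose and 2 fell (median -0.20), with the peroxisomal enzyme Ehhadh down by 1.67. Of 12 LXR targets 2 rose and 2 fell (median 0.09); Apoe was saturated on all 4 arrays, and the rise of Fasn, fatty acid synthase, by 1.03 did not pass after quantile normalisation (0.51, adjusted p = 0.139). Of 10 glucocorticoid receptor targets 0 rose and 1, Sgk1, fell by 1.46 (median -0.0086), whereas after normexp 1 rose and 5 fell. The glucocorticoid-induced Fkbp5 had the largest difference of that list, 2.37 (adjusted p = 0.0501), which passed relative to the array median (0.00274) and after normexp (0.0109), and 1 rose with the replicate block. None of 5 thyroid hormone receptor targets passed in the limma fit, with 1 at an unadjusted p under 0.05 (median -0.28), and of 7 retinoic acid targets 1, Tgm2, rose (1.03, not past after quantile normalisation at adjusted p = 0.0698).

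Other marker lists showed the following beside the receptor results, on an array where 21.7% of all genes rose and 9.78% fell. Of 9 hepatocyte markers 2 rose, Alb and Apoa1, both on saturated probes, and 1 fell, and the liver identity of the samples was plain from their summed signal of 1050 to 1070 in control and 1770 to 2050 in LB1. Of 10 Kupffer cell and macrophage markers 0 rose and 2 fell (70.4 to 76.6 against 70.1 to 73.9). Cholangiocyte markers gave 3 rises and 1 fall of 7 (4.92 to 5.28 against 5.62 to 12.0), and lymphocyte markers 4 rises of 9 (2.84 to 3.36 against 4.20 to 4.77). Striated muscle gave 2 rises of 4 (0.527 to 0.775 against 3.45 to 7.71). Of these, Acta1 was bright enough to test in LB1 but not in control, so the filter itself favoured its rise. Adipocyte markers gave 1 rise of 5, Car3, on a saturated probe (159 to 162 against 428 to 576). Car3, at 7.24 and 7.27 against 8.72 and 9.15, made up nearly all of that sum. The other 4 tested differed by -0.35 to 0.92 without a call in the limma fit. Cfd, Lep, Plin1, Retn and Slc7a10 were never above background. The part of these cells in the differences of the members was not tested.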

How the data were processed

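Liver RNA of 4 mice (2 control, 2 LB1) was hybridised to 1-colour Agilent arrays. The deposited scanner files hold linear spot intensity that Feature Extraction 10.5.1.1 read from scanner G2505C, per the file headers, background-subtracted but not scaled between arrays; the series' design text names other versions. A deposited table of the series holds the mean spot intensity before background subtraction, rounded to whole numbers (within 0.5 of the scanner's mean signal in 100% of spots). It thus differs from the main values in more than rounding. Probe coordinates are those of the files (mm9).

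Without control and outlier spots, log2 values were set relative to each array's 75th percentile, and repeated spots were averaged by probe. Probes flagged well above background in both mice of a group were tested in limma (version 3.58.1, lmFit and eBayes, R 4.3.3) and adjusted by Benjamini-Hochberg over 22969 probes, a procedure tested on simulated data. The 95% intervals are those of this fit. A gene was represented by its brightest tested probe. Members with any call and 12 receptors and coregulators picked for their role are given in full. Of other lists the 2 called genes of smallest p are named; Nr4a1, Esrrg, Pgr, Esr2, Alb, Apoa1, Cel, Clps, Cela1 and Fkbp5 were added after their values were seen, and some genes are not reported here.

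Members and lists were chosen with earlier results of these data known. The same-numbered arrays share a slide per the file headers, their deviations from the group means correlated at 0.151, and the replicate block was an alternative. Others were normexp (offset 50), quantile, array median, filters on dim probes, the rounded table, array weights, leaving out each array, and the methods' t-test. Promoters are from RefSeq.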

Additional observations from a re-analysis of the deposited data

How the results depend on the processing

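The count of called member genes was 8. It was 14 with normexp (10 higher, 4 lower), 5 with quantile normalisation, 15 with the rounded series table (12 higher, 3 lower), 14 with trended, robust eBayes and 5 with the mean of a gene's probes. Relative to the array median it was again 8, but split 3 higher and 5 lower. Leaving out each array gave 0 to 16. The methods' t-test gave 6 at its unadjusted threshold and 0 after Benjamini-Hochberg. Called probes on the whole array numbered 7437, against 15990 with normexp, 20683 with no filter, 14447 with the rounded table, 1 to 11028 leaving out each array, 4109 by the methods' t-test and 0 after its adjustment. With the replicate block, which is also the slide, 8 member genes and 6958 probes passed.

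The sensors' median of 0.07 was -0.37 with normexp, -0.57 by array median, -0.20 in the rounded table, 0.24 within replicate number 2 and 0.0139 to 0.31 leaving out each array. That of the steroid and thyroid receptors, 1.01, was 0.50, 0.38 and 0.71 in the same 3 settings, 0.60 by quantile, 0.80 with probes above background on all 4 arrays, 0.91 within replicate number 1, 0.29 with the mean of probes and 0.89 to 1.13 leaving out each array.

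Among probes past the threshold in 1 or both of the fits compared, signs reversed with normexp for Thrb (0.0285 and 1.21), Rarg (1.36), Nr2c1 (0.57), Nr2c2 (0.67), Nr6a1 (0.49), Rora (1.07), Ncoa2 (0.79), Ncoa3 (0.41) and Nrip1 (0.39), and in the rounded table for Thrb (0.87), Rarg (1.08), Nr2c2 (0.35), Rora (0.84) and Ncoa2 (0.62). Other probes, among them those of Nr1h4 and Vdr, changed sign with normexp without passing in either fit. Normexp added 50 signal units to every spot before scaling. The 75th percentile was 146.9 and 80.78 in LB1 and 410.9 and 414.7 in control, so this offset lifted dim probes more in LB1. The rounded table was not background-subtracted. The part of these settings in the reversals was not tested. The reversed Nr6a1, Nrip1 and Ncoa3 probes and the first Thrb probe were well above background on all 4 arrays. Signal over background limits the probes described as not well above it, and 2 mice a group limit every p. With the probe brightest in control, an alternative chosen after seeing the data, 6 member genes rose and 1 fell. Array weights and the block reversed no member probe.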
